A study of Homo sapiens with 4 samples.

Results

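The Hedgehog pathway genes described here are 9 of the 57500 genes counted in SUM159 cells: the ligand gene DHH, the receptor genes PTCH1, HHIP and GAS1, the signal transducer gene SMO, the inhibitor gene SUFU and the transcription factor genes GLI1, GLI2 and GLI3. They were taken by symbol, through the gene identifiers of GENCODE 29, and each symbol had 1 row in the counts. SUM159 is an established triple-negative metaplastic breast cancer (MpBC) cell line. RNA-sequencing covered 1 library of Parental SUM159 cells, the control, and 1 library from each of 3 NOS2KO clones, numbered 1, 5 and 6. The clones came from SUM159 cells that received a double nickase plasmid against NOS2, the gene of inducible nitric oxide synthase (iNOS), and each is a single line that survived puromycin and was picked by iNOS immunoblot and by an assay of nitrite and nitrate. The Parental cells are labelled only as Parental Control, and whether they went through transfection, puromycin or cloning is not stated. No drug or time course was part of this comparison.

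Hedgehog ligands bind the receptor Patched, which otherwise keeps the membrane protein Smoothened silent. Once released, Smoothened acts at the primary cilium and frees the GLI transcription factors from SUFU, and GLI1, PTCH1 and HHIP are themselves transcribed in response, so their mRNAs are commonly used to read the pathway's activity. In breast cancer, GLI1 has been linked to epithelial-to-mesenchymal transition (EMT) and to cancer stem cells.

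Promoter windows of 7 of the 9 genes, 12 windows in all, were found in RefSeq (GRCh38.p14, 250 bases before to 50 bases after a transcription start), while GLI1 and GLI3 had no entry. The windows below belong to the 3 genes with an entry that met the fold criterion described further on. They are printed 5′ to 3′ on the strand of the gene, and capitals mark a match to the GLI consensus GACCACCCA on either strand. They lie at chr9:95509217-95509516 on the minus strand for PTCH1 (1 of 5 starts, the one with a match), at chr4:144645906-144646205 on the plus strand for HHIP and at chr10:102503722-102504021 on the plus strand for SUFU.
PTCH1: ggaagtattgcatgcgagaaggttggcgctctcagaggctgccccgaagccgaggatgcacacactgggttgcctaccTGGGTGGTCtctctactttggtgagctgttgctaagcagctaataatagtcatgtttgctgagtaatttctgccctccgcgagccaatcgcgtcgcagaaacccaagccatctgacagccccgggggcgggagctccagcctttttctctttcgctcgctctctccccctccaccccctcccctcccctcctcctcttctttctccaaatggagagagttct
HHIP: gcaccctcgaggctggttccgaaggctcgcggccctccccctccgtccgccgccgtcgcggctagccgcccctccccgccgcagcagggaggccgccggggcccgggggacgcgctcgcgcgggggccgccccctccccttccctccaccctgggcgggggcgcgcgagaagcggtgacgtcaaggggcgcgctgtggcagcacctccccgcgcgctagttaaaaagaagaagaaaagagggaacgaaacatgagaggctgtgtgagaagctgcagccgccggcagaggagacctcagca
SUFU: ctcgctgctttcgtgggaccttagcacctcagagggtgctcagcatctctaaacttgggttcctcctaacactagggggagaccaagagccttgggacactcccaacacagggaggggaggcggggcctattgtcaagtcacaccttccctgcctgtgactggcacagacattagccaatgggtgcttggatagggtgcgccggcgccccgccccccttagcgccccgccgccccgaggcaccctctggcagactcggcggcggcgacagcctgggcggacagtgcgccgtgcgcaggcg

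The GLI consensus was present in 83 of 35116 RefSeq windows (0.236%). Among the 12 windows of the Hedgehog genes it was found in 1, the PTCH1 window above, as TGGGTGGTC on the printed strand from -172 to -164 bases relative to the start (chromosome 9 from 95509430 to 95509438). The AP-1 consensus TGANTCA, which reads the same on both strands and does not overlap the GLI consensus, was searched because the study examined c-Jun and Fos. It was present in 7.71% of all windows and in 1 window of the Hedgehog genes, at the second start of GLI2, as TGAGTCA from -170 to -164. These matches describe the letters of the windows only.

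Depth was high in each library, with 90467395 to 122171287 counts on genes, so that 3 counts, the floor used here, corresponded to 0.0262 to 0.0332 CPM (counts scaled to library size by the trimmed mean of M values, TMM). The targeted gene NOS2 had 2 counts in Parental cells, 3 in clone 1, 1 in clone 6 and 18 in the library labelled clone 5. NOS2 mRNA was thus at or below the floor in Parental cells and could not check the label of any clone. The higher count in clone 5 was also low, at 0.169 CPM against 0.0221 CPM in Parental cells. The clones had been picked by iNOS immunoblot and by nitrite and nitrate, and whether iNOS protein was lost was not tested here. Because of this count alone, that library is called the library labelled clone 5 throughout. The mesenchymal markers summed to 4053 CPM in Parental cells and 5954 to 6430 CPM in the clones, a sum carried by VIM and FN1, while ZEB1 was lower in each clone (log2 ratios -1.08, -0.74 and -0.53) and CDH2 lay on both sides of Parental cells (0.20, -0.03 and -0.55). The epithelial markers summed to 557.0 CPM in Parental cells and 835.4 to 1274 CPM in the clones, nearly all of it from KRT8 (253.9 CPM against 416.1, 806.5 and 524.9) and KRT18 (303.0 CPM against 419.2, 467.3 and 325.9), since EPCAM and CDH1 had at most 28 and 44 counts. None of these 8 markers met the fold criterion defined below. For the receptors named in the triple-negative label, ESR1 had 9 to 79 and PGR at most 3, and ERBB2 had 4365 to 11320 counts. Of the markers of blood and vessel cells, PTPRC (CD45, of blood cells) had 402 counts in the Parental library and 7848, 11233 and 4112 in the clones, which are listed throughout in the order 1, 5, 6 unless named, while CD3E had at most 8 counts and CD68 at most 29. PTPRC met the fold criterion as higher (log2 fold change 4.01, standard error 0.56), and none of the other cell type markers tested met it. The vessel markers went opposite ways, with log2 ratios of -0.21, -1.19 and -0.90 for PECAM1 (1457 counts in Parental cells) and 0.41, 4.18 and 3.35 for VWF (19 counts). The list summed to 20.9 CPM in Parental cells and 52.8 to 116.5 CPM in the clones, and its part in the results was not tested.

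The comparison asked how mRNA levels of the pathway differed between cells with and without targeting of NOS2. In the clones, GLI1, PTCH1 and HHIP, the genes used to read pathway activity, were lower than in Parental cells, SUFU was higher, GLI3 was close to its Parental level, and SMO, GAS1 and GLI2 lay on both sides of it. A gene met the fold criterion, which was taken from the study's plot of this comparison, when its unadjusted p was under 0.05 and its log2 fold change below -1 or above 1 in edgeR's quasi-likelihood test. Of the 9 genes, 8 had enough counts to be tested (all but DHH). Of these, 3 met the criterion as lower, against 5.34% of all 22511 tested genes, and 1 as higher, against 4.24%. The 9 genes were chosen with earlier results of these data known, so these counts are not independent evidence of a direction. None of the 8 had an adjusted p under 0.05 in edgeR with Benjamini-Hochberg adjustment, where 0.00444% of all tested genes did, and 4 had an unadjusted p under 0.05. With DESeq2's Wald test, adjusted p-values under 0.05 were obtained for 1 lower gene, HHIP, against 3.05% of all genes with an adjusted p, and for 1 higher gene, SUFU, against 3.13%. The calls by the fold criterion therefore carry no correction for the number of genes tested.

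Clone by clone, with no test, GLI1, PTCH1 and HHIP were lower than in the Parental library by over 1 on the log2 scale in each of the 3 clones, which was true of 6.29% of all tested genes. SUFU was higher by over 1 in each, as were 7.67% of all tested genes. By any amount, the same 3 genes were lower in every clone, where 30.5% of all tested genes were, and SUFU alone was higher, where 28.6% were. For the other 4 tested genes, GLI2, GLI3, SMO and GAS1, the Parental value lay within the range of the clones. The clones were each compared with the same Parental library, so an unusual Parental value would enter all 3 ratios. The smallest p that an exact permutation of 1 library against 3 can give is 0.25, and the p-values of the fit assume that the spread among the clones holds for Parental cells. Nothing says that the libraries came from separate cultures beyond the clones themselves, and in bulk RNA fewer expressing cells and less RNA per cell cannot be told apart.

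**Figure D1:**
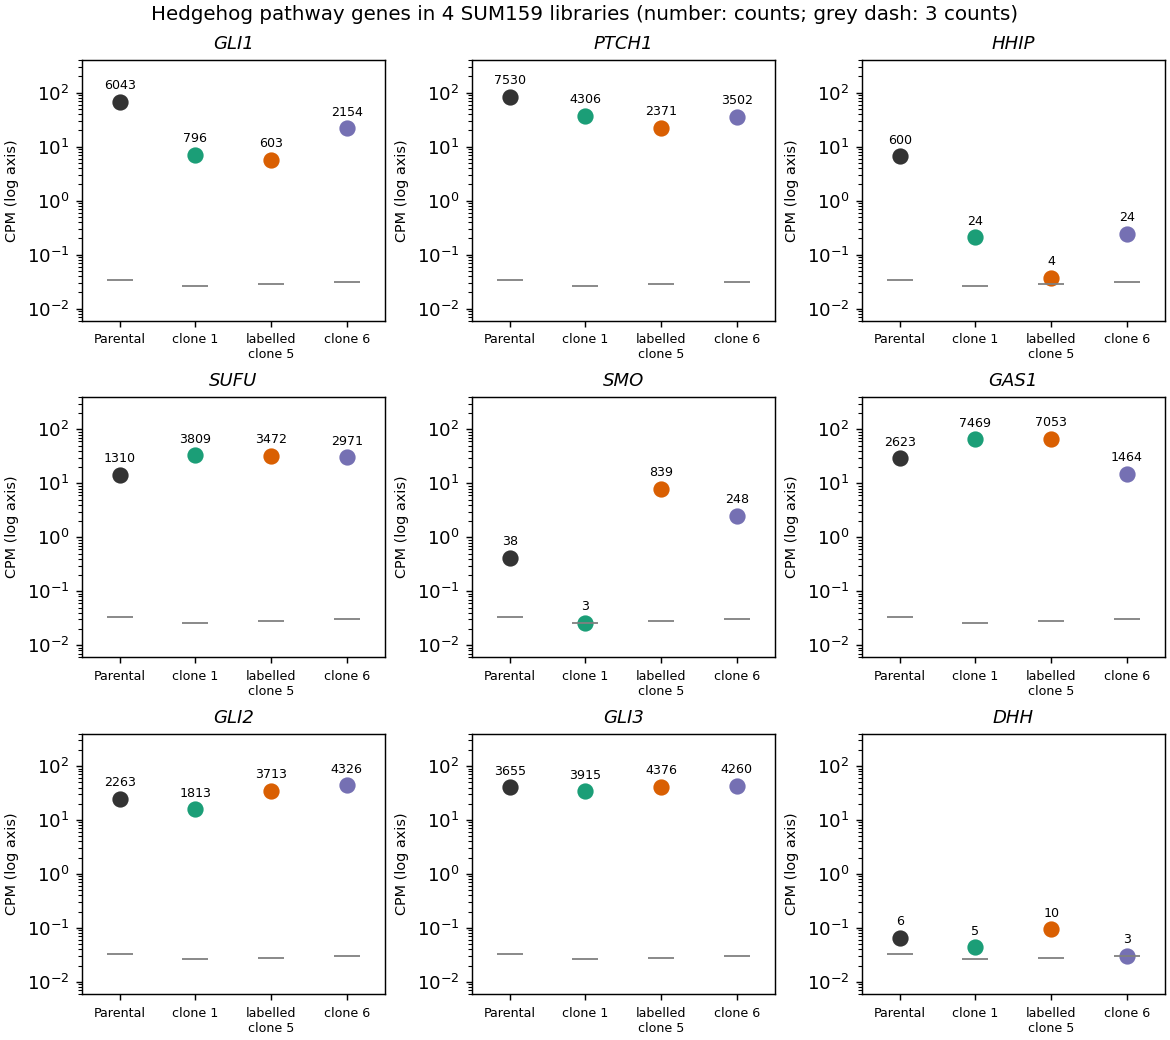
TMM-scaled CPM (log axis) of the 9 Hedgehog genes in the Parental library and the 3 NOS2KO clones, 1 point per library, with the raw count above each point and a grey dash at the level of 3 counts. The 3 clone points of GLI1, PTCH1 and HHIP lie below the Parental point, those of SUFU above it, and those of SMO on both sides.

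Among the ligands, DHH (desert hedgehog; ENSG00000139549, chromosome 12 from 49089421 to 49094819 of GRCh38, minus strand) had 6 counts in Parental cells, 5 in clone 1, 3 in clone 6 and 10 in the library labelled clone 5. All 4 values were close to the floor and DHH was not tested. The log2 ratio of each clone to Parental cells had an exact 95% interval that included 0, the widest being that of clone 6 (-3.75 to 1.10), so a difference was not detectable at this depth. Of the exon length of DHH, 13.8% is shared with a transcript of the opposite strand (AC011603.1, at most 3 counts).

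SHH (sonic hedgehog), a ligand gene outside the 9, had 43 counts in the Parental library and 0 in each clone. The Parental level of SHH was 18.2-fold above 3 counts in NOS2KO clone 1, 16.9-fold in the library labelled clone 5 and 15.6-fold in NOS2KO clone 6. These folds leave out the counting error of the 43 counts. SHH met the fold criterion (adjusted p = 0.332, edgeR with Benjamini-Hochberg adjustment). It passed the filter through the Parental library alone (0.476 CPM), and a filter of at least 1 CPM in a library left it out. IHH (Indian hedgehog) had at most 2 counts in any library. HHAT, the acyltransferase that attaches palmitate to the ligands, had 151 counts in Parental cells and 322, 739 and 331 in the clones (log2 fold change 1.39, standard error 0.71, adjusted p = 0.543). DISP1, which releases the lipid-bearing ligand, had 675 counts against 800, 788 and 866 (log2 fold change 0.05). In the list of 9 genes for ligands and their release, 7 were tested, SHH met the criterion as lower, against 5.34% of all tested genes, none did as higher, against 4.24%, and the list had a median log2 fold change of 0.88 beside 0.10 over all tested genes.

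Both receptors that bind the ligand and are induced by the pathway were lower in the clones. PTCH1 (Patched 1; ENSG00000185920, chromosome 9 from 95442980 to 95517057, minus strand) had 7530 counts or 83.3 CPM in the Parental library, 4306 counts or 37.6 CPM in NOS2KO clone 1, 2371 counts or 22.2 CPM in the library labelled clone 5 and 3502 counts or 35.5 CPM in NOS2KO clone 6. Parental cells stood above the 3 clones, which did not reach their level, and the clones averaged 31.8 ± 8.31 CPM (SD, n = 3). The ratios to Parental cells correspond to levels 2.22-fold, 3.75-fold and 2.35-fold lower, or -1.15 (exact 95% interval -1.20 to -1.10), -1.91 (-1.97 to -1.84) and -1.23 (-1.29 to -1.17) on the log2 scale. The log2 fold change of the fit was -1.39 (standard error 0.39, adjusted p = 0.342 in edgeR with Benjamini-Hochberg adjustment, 0.0936 in DESeq2), and leaving out a clone gave values from -1.53 to -1.17. An opposite-strand transcript, AL161729.1, shares 711 bases of PTCH1's exons and had 72 to 133 counts.

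HHIP (ENSG00000164161, chromosome 4 from 144646021 to 144745271, plus strand) encodes a membrane protein that binds and sequesters Hedgehog ligands. It had 600 counts or 6.64 CPM in the Parental library, 24 counts or 0.209 CPM in NOS2KO clone 1, 4 counts or 0.0375 CPM in the library labelled clone 5 and 24 counts or 0.243 CPM in NOS2KO clone 6. Clones 1 and 6 differed by less than their counting error (log2 ratio 0.22, interval -0.66 to 1.10), and the library labelled clone 5 was just above its floor of 0.0281 CPM. The log2 ratios to Parental cells were -4.99 (exact 95% interval -5.64 to -4.40), -7.47 (-9.35 to -6.10) and -4.77 (-5.42 to -4.18), which correspond to levels 31.7-fold, 176.9-fold and 27.3-fold lower. The log2 fold change was -5.33 (standard error 1.05, adjusted p = 0.292 in edgeR with Benjamini-Hochberg adjustment, 8.38e-05 in DESeq2), the largest drop among the 8 tested Hedgehog genes, and without the library labelled clone 5 it was -4.85. The opposite-strand gene HHIP-AS1, which shares exon bases with HHIP, had 19 counts in the Parental library and 1, 6 and 5 in the clones.

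GAS1 (ENSG00000180447, chromosome 9 from 86944363 to 86947189, minus strand), a membrane-anchored co-receptor that presents ligand to Patched, split the clones. It had 2623 counts or 29.0 CPM in the Parental library, 7469 counts or 65.1 CPM in NOS2KO clone 1, 7053 counts or 66.2 CPM in the library labelled clone 5 and 1464 counts or 14.9 CPM in NOS2KO clone 6. Clone 1 and the library labelled clone 5 were 2.24-fold and 2.28-fold above Parental cells and did not differ from each other beyond counting error (log2 ratio 0.02, interval -0.02 to 0.07), whereas clone 6 was below Parental cells (log2 ratio -0.97, interval -1.06 to -0.87). In the fit, GAS1 had log2 fold change 0.75 (standard error 0.87, adjusted p = 0.771 in edgeR with Benjamini-Hochberg adjustment). Without clone 6 it was 1.18, and GAS1 then met the fold criterion.

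Of the 17 genes in the list of receptors and receptor partners, all were tested, 2 met the criterion as lower (PTCH1 and HHIP), against 5.34% of all tested genes, and 1 as higher, against 4.24%, with a median log2 fold change of 0.59 beside 0.10 over all tested genes. The higher gene was CDON, a co-receptor of the immunoglobulin superfamily, with 1662 counts in Parental cells and 3784, 4619 and 3363 in the clones (log2 fold change 1.00, standard error 0.31, adjusted p = 0.386 in edgeR with Benjamini-Hochberg adjustment). Without the library labelled clone 5, no gene of the list met the criterion as higher.

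SMO (Smoothened; ENSG00000128602, chromosome 7 from 129188872 to 129213545, plus strand), the transducer between Patched and the GLI factors, varied more among the clones than any of the other 8 Hedgehog genes. It had 38 counts or 0.420 CPM in the Parental library, 3 counts or 0.0262 CPM in NOS2KO clone 1, 839 counts or 7.87 CPM in the library labelled clone 5 and 248 counts or 2.52 CPM in NOS2KO clone 6. Clone 1 was at the floor and the other clones were above Parental cells, with log2 ratios of -4.01 (exact 95% interval -6.35 to -2.35), 4.23 (3.76 to 4.74) and 2.58 (2.08 to 3.11). Between the library labelled clone 5 and clone 1 the log2 ratio was 8.23 (6.68 to 10.51). In the fit of the 3 clones SMO had log2 fold change 3.04 (standard error 2.29, adjusted p = 0.696 in edgeR with Benjamini-Hochberg adjustment). Without clone 1 it was 3.62 and met the fold criterion, and without the library labelled clone 5 it was 1.62. SMO mRNA was highest in the library labelled clone 5, in which PTCH1, HHIP and GLI1 each had their lowest level of the 4 libraries.

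**Figure D2:**
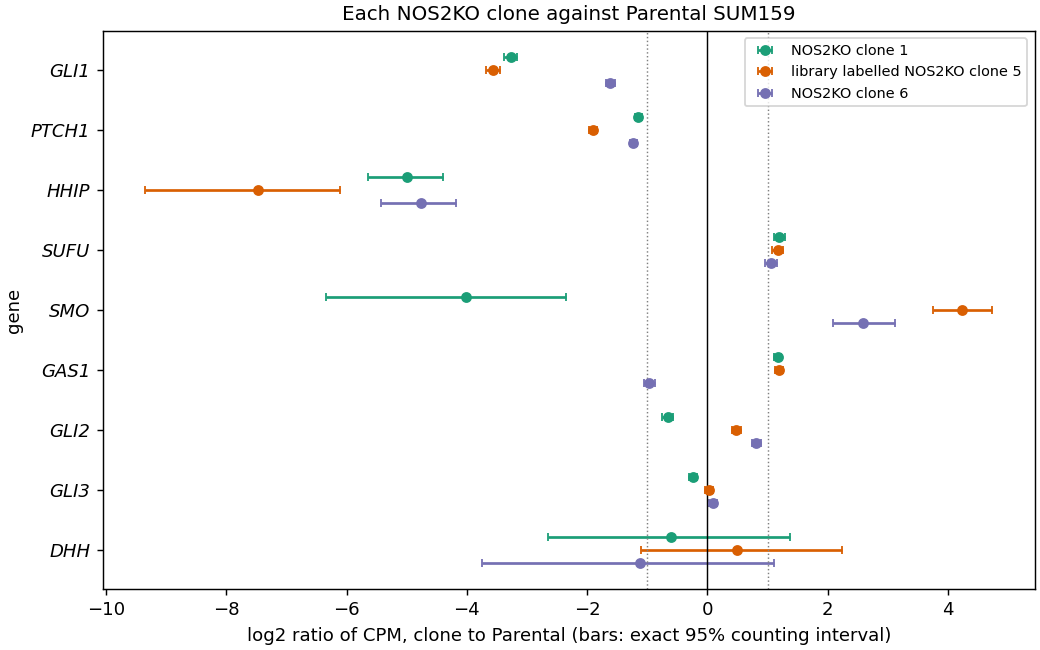
Log2 ratio of TMM-scaled CPM of each NOS2KO clone to the Parental library for the 9 Hedgehog genes, with bars for the exact 95% counting interval and dotted lines at -1 and 1. GLI1, PTCH1 and HHIP lie left of -1 and SUFU right of 1 in all 3 clones, SMO runs from -4.01 to 4.23, and the bars of DHH cross 0.

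SUFU (ENSG00000107882, chromosome 10 from 102503987 to 102633535, plus strand) encodes the protein that holds GLI factors in the cytoplasm, and it had the smallest spread among the clones of the 4 genes that met the fold criterion. It had 1310 counts or 14.5 CPM in the Parental library, 3809 counts or 33.2 CPM in NOS2KO clone 1, 3472 counts or 32.6 CPM in the library labelled clone 5 and 2971 counts or 30.1 CPM in NOS2KO clone 6. The 3 clones averaged 32.0 ± 1.62 CPM (SD, n = 3) and all were above Parental cells, by 2.29-fold, 2.25-fold and 2.08-fold. The corresponding log2 ratios were 1.20 (exact 95% interval 1.11 to 1.29), 1.17 (1.08 to 1.26) and 1.06 (0.96 to 1.15), so the interval of clone 6 reached below 1. The log2 fold change was 1.14 (standard error 0.28, adjusted p = 0.340 in edgeR with Benjamini-Hochberg adjustment, 0.0282 in DESeq2). Without the library labelled clone 5 it was 1.15 with an unadjusted p of 0.0541 in edgeR, so SUFU no longer met the criterion.

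GLI1 (ENSG00000111087, chromosome 12 from 57460135 to 57472262, plus strand), the GLI factor that acts as an activator and is itself a target of the pathway, was lower in every clone, to different degrees. It had 6043 counts or 66.9 CPM in the Parental library, 796 counts or 6.94 CPM in NOS2KO clone 1, 603 counts or 5.66 CPM in the library labelled clone 5 and 2154 counts or 21.9 CPM in NOS2KO clone 6. The clones averaged 11.5 ± 9.0 CPM (SD, n = 3) and none reached the Parental level, with levels 9.63-fold, 11.8-fold and 3.06-fold lower. The log2 ratios were -3.27 (exact 95% interval -3.38 to -3.16), -3.56 (-3.69 to -3.44) and -1.61 (-1.69 to -1.54). Clone 6 stood 3.15-fold above clone 1 and 3.86-fold above the library labelled clone 5, well beyond counting error. The log2 fold change was -2.54 (standard error 0.86, adjusted p = 0.367 in edgeR with Benjamini-Hochberg adjustment, 0.0669 in DESeq2), and leaving out a clone gave values from -3.41 (without clone 6) to -2.19.

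GLI2 (ENSG00000074047, chromosome 2 from 120735623 to 120992653, plus strand), the main activator made before GLI1, had 2263 counts or 25.0 CPM in the Parental library, 1813 counts or 15.8 CPM in NOS2KO clone 1, 3713 counts or 34.8 CPM in the library labelled clone 5 and 4326 counts or 43.9 CPM in NOS2KO clone 6. Its log2 ratios of -0.66, 0.48 and 0.81 took both signs, and the log2 fold change was 0.33 (standard error 0.61, adjusted p = 0.857 in edgeR with Benjamini-Hochberg adjustment). GLI3 (ENSG00000106571, chromosome 7 from 41960950 to 42237870, minus strand), which acts mainly as a repressor, had 3655 counts or 40.4 CPM in the Parental library, 3915 counts or 34.1 CPM in NOS2KO clone 1, 4376 counts or 41.1 CPM in the library labelled clone 5 and 4260 counts or 43.2 CPM in NOS2KO clone 6. GLI3 had the log2 fold change nearest to 0 of the 8 tested Hedgehog genes, -0.04 (standard error 0.29, adjusted p = 0.972), whose sign turned with upper quartile scaling, and its log2 ratios ran from -0.24 to 0.10. The Parental values of both genes lay inside the range of the clones.

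Levels of different genes were compared as CPM per kb of exon length. In Parental cells GLI1 had the highest level of the 9 genes, 15.9, followed by GAS1 with 10.3, PTCH1 with 5.02, GLI3 with 4.38, GLI2 with 3.41, SUFU with 2.11, HHIP with 0.550, SMO with 0.0975 and DHH with 0.0343. With 1 Parental library this order has no replicate check. GLI1 was in place 3 of 9 in clone 6, and in place 6 both in clone 1 and in the library labelled clone 5. Over the clones, GAS1 averaged 17.2 ± 10.4, and SUFU (4.66 ± 0.24), GLI2 (4.29 ± 1.95) and GLI3 (4.27 ± 0.513) did not differ beyond their spread (SD, n = 3). GLI1 (2.73 ± 2.14) and PTCH1 (1.92 ± 0.501) overlapped in the same way, and SMO (0.805 ± 0.930) overlapped them, while HHIP (0.0135 ± 0.00914) overlapped DHH (0.0289 ± 0.0173).

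Of the summed level per kb of GLI1, GLI2 and GLI3, GLI1 made up 67.1% in Parental cells, 22.0% in clone 1, 32.8% in clone 6 and 12.8% in the library labelled clone 5. The share of GLI1 was thus below the Parental share in each clone. GLI3 had the largest share in clone 1 (49.3%), while GLI2 led in clone 6 (37.7%) and in the library labelled clone 5 (45.0%). The sum itself was 23.7 CPM per kb in Parental cells and 7.50, 10.5 and 15.9 in the clones. SUFU, at 2.11 CPM per kb, was below this sum by far in Parental cells, and at 4.84, 4.74 and 4.39 it was nearer to it in the clones.

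**Figure D3:**
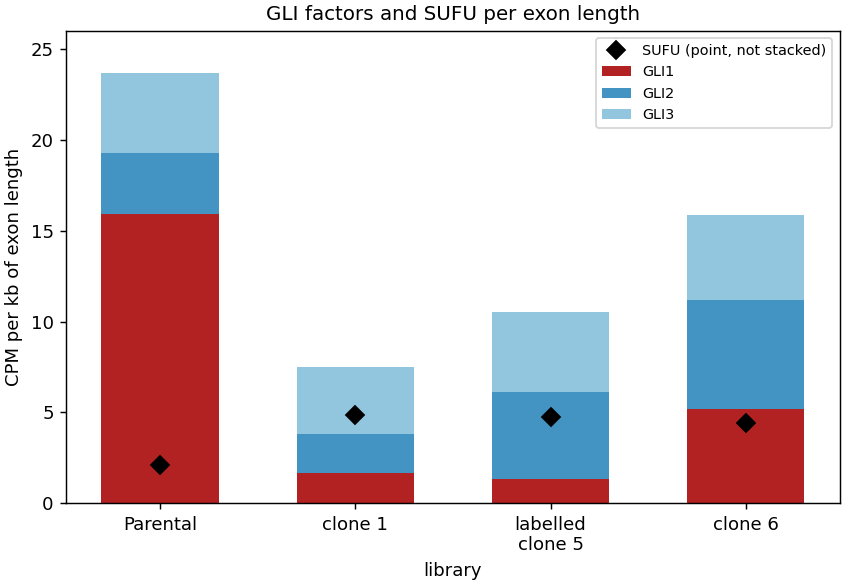
Stacked bars of GLI1, GLI2 and GLI3 in CPM per kb of exon length in each of the 4 libraries, with SUFU as a diamond that is not stacked. GLI1 takes up 67.1% of the Parental bar and 12.8% to 32.8% of the bars of the clones, and the diamond is higher in each clone than in Parental cells.

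In the list of 21 GLI factors and genes of their control, all tested, GLI1 met the criterion as lower, against 5.34% of all tested genes, and SUFU as higher, against 4.24%, so the shares of the list were near the background. Its median log2 fold change was -0.19 beside 0.10 over all tested genes. The 2 genes of the list with the highest level per length were PRKAR1A, a regulatory subunit of protein kinase A, and CSNK1A1, casein kinase 1 alpha, whose kinases phosphorylate the GLI factors. PRKAR1A had a log2 fold change of 0.05 (standard error 0.28) and CSNK1A1 one of -0.44 (standard error 0.28, adjusted p = 0.569 in edgeR with Benjamini-Hochberg adjustment).

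Of 21 genes cited as GLI targets, a list written with earlier results of these data known and not independent evidence of a direction, 4 met the criterion as lower (GLI1, PTCH1, HHIP and BCL2), against 5.34% of all tested genes, and 1 as higher (BMP4), against 4.24%. The list had a median log2 fold change of -0.17 beside 0.10 over all tested genes, and 3 of the 4 lower genes belong to the 9 chosen genes. BCL2, an inhibitor of apoptosis, had 3538 counts in Parental cells and 1865, 1694 and 1086 in the clones (log2 fold change -1.44, standard error 0.37, adjusted p = 0.332 in edgeR with Benjamini-Hochberg adjustment, 0.0448 in DESeq2). BMP4, a ligand of the bone morphogenetic protein family, moved the other way, with 330 counts in Parental cells and 7530, 8073 and 3197 in the clones (log2 fold change 3.99, standard error 0.54, adjusted p = 0.277, 1.88e-07 in DESeq2). CCND2 (cyclin D2) had 1074 counts in Parental cells and 13, 355 and 11 in the clones and did not meet the criterion (log2 fold change -3.32, standard error 2.08). The 2 targets with the highest level per length were CCND1 (cyclin D1), at log2 fold change -0.38 (standard error 0.60), and FOXM1, a cell cycle transcription factor, at 1.66 (standard error 0.64, adjusted p = 0.465). Among the 21 targets, 11 had a log2 fold change below 0 and 10 above 0.

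**Figure D4:**
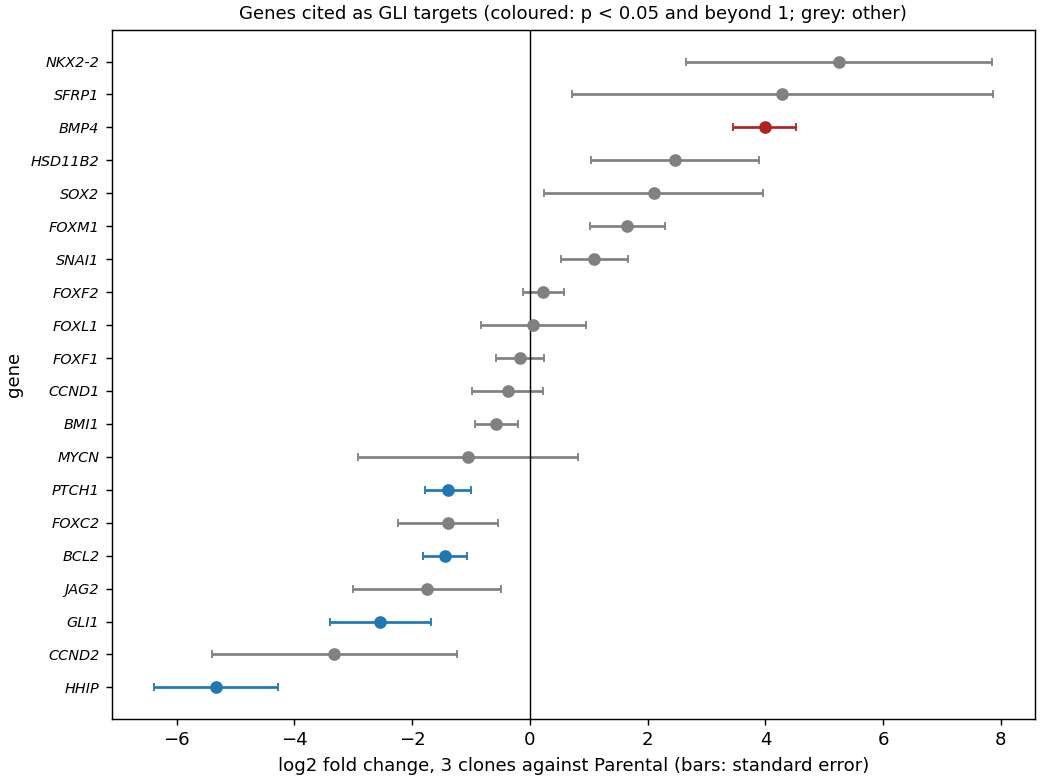
Log2 fold change (3 NOS2KO clones against the Parental library, bars for the standard error) of the genes cited as GLI targets that are reported here, in edgeR's quasi-likelihood fit, coloured where the fold criterion was met. HHIP, GLI1, BCL2 and PTCH1 are the 4 lower genes, BMP4 the 1 higher gene, and the grey genes run from CCND2 (-3.32) to NKX2-2 (5.25).

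Leaving the 9 genes aside, the lists held 55 further pathway genes, of which 54 were tested. SHH and BCL2 met the criterion as lower and CDON and BMP4 as higher, that is 2 in each direction, against 5.34% and 4.24% of all tested genes, and the median log2 fold change was 0.05 beside 0.10 over all tested genes. The shares of the further pathway genes were thus near the background. Without clone 1 the number of higher genes was 8.

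The primary cilium, where Smoothened and the GLI factors are processed, was covered by 56 genes, all tested. IFT74 and CEP83 met the criterion as lower and TCTN2 as higher, the median log2 fold change was -0.11, and 32 genes were below 0 and 24 above. IFT74, a subunit of the intraflagellar transport complex that carries cargo to the tip, had 2248 counts in Parental cells and 1350, 892 and 861 in the clones (log2 fold change -1.37, standard error 0.38, adjusted p = 0.342 in edgeR with Benjamini-Hochberg adjustment). CEP83, which docks the mother centriole to the membrane, had 1657 counts against 946, 799 and 594 (log2 fold change -1.34, standard error 0.40, adjusted p = 0.351). TCTN2, of the transition zone, had 1240 counts against 2929, 4535 and 3359 (log2 fold change 1.31, standard error 0.39, adjusted p = 0.374). Of the 2 cilium genes with the highest level per length, KIF3B, a kinesin-2 motor, had a log2 fold change of 0.04 (standard error 0.26) and WDR34, an intermediate chain of dynein-2, one of 1.27 (standard error 0.50, adjusted p = 0.465). These shares were below those of all tested genes, and without clone 6 no cilium gene met the criterion as lower.

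GLI1 lies in a stretch of chromosome 12 in which other genes were lower too. INHBE (inhibin beta E), which ends 854 bases before GLI1 on the same strand, had 24029 counts in the Parental library and 120, 95 and 109 in the clones (log2 fold change -8.03, standard error 0.28, adjusted p = 0.0382 in edgeR with Benjamini-Hochberg adjustment). It was the 1 gene of all tested that passed the adjusted threshold, and leaving out a clone gave adjusted p-values from 0.105 to 0.455. In clone 6, INHBE was as low as in the other clones (1.11 CPM against 1.05 and 0.891), whereas GLI1 was 3.15-fold above its level in clone 1. Whether reads running past the end of INHBE were counted on GLI1 was not tested. ARHGAP9, on the opposite strand, shares 8 bases with GLI1's exons and had 106 counts in Parental cells and 8, 189 and 102 in the clones.

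Farther along, MARS (methionyl-tRNA synthetase, 3182 bases after GLI1) had 415.7 CPM in Parental cells and 126.7, 177.2 and 128.5 CPM in the clones, and it met the fold criterion (log2 fold change -1.53, standard error 0.34, adjusted p = 0.325 in edgeR with Benjamini-Hochberg adjustment). DDIT3 (the stress-induced transcription factor CHOP) had 98.1 CPM against 6.02, 11.9 and 11.1 CPM and also met it (log2 fold change -3.34, standard error 0.47, adjusted p = 0.259). The outer genes of the 50 kb on each side did not, with log2 fold changes of -0.33 (standard error 0.28) for R3HDM2 and 0.03 (standard error 0.32) for MBD6. Of the 7 genes here, GLI1 included, 4 met the criterion as lower, against 5.34% of all tested genes. The window was centred on GLI1, itself among the 4, so this count is not independent evidence of a regional difference. The 4 genes do not form an unbroken run, since ARHGAP9 lies between them.

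**Figure D5:**
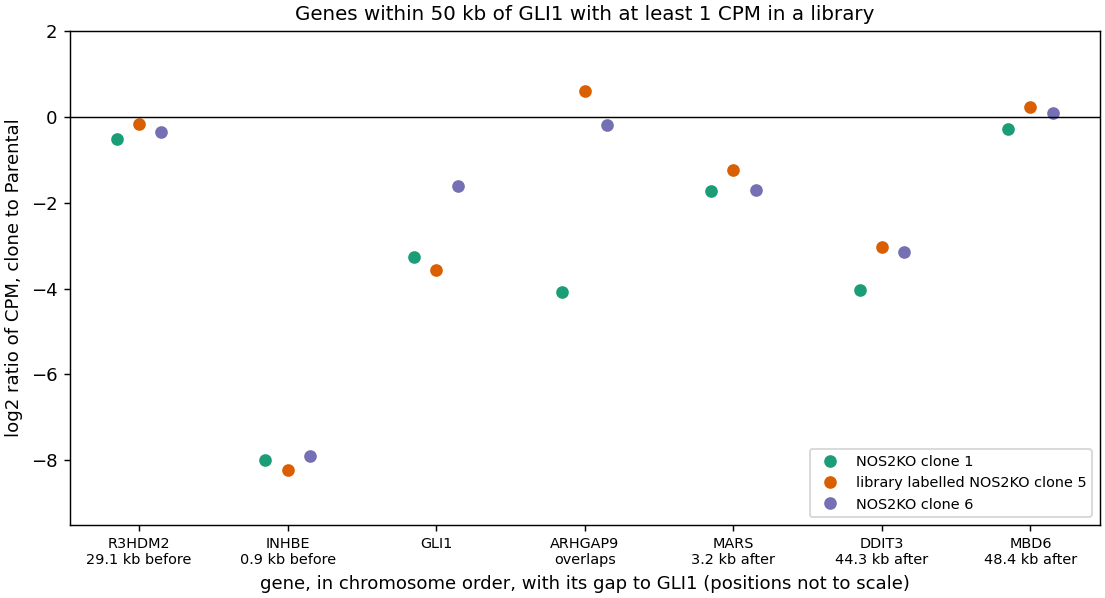
Log2 ratio of each NOS2KO clone to the Parental library for GLI1 and the genes within 50 kb that reached 1 CPM, in chromosome order with the gap to GLI1 under each name. INHBE lies near -8 in every clone, GLI1, MARS and DDIT3 are below -1 in every clone, and R3HDM2 and MBD6 lie near 0.

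The genes whose pattern over the 4 libraries was most like that of GLI1 were sought by the distance between their 3 log2 ratios and those of GLI1. The search covered 10707 other genes that reached 10 CPM in 1 or more libraries and had counts in all 4. Genes without a count in any 1 library were left out. The 5 nearest are named here. These 5 were HMOX1 (heme oxygenase 1, distance 0.78), with log2 ratios of -3.23, -2.83 and -1.86, ARRDC4 (an alpha-arrestin, 0.81), with -2.82, -3.11 and -1.11, ABCA10 (an ABC transporter, 1.04), IL18R1 (a receptor chain of interleukin 18, 1.09) and SMOX (spermine oxidase, 1.10). None of the 5 is a gene of the Hedgehog lists. PTCH1, the nearest of the other Hedgehog genes at that level, was at a distance of 2.72 and in place 327, since its ratios were smaller and clone 6 did not stand apart from clone 1 as it did for GLI1. The 3 ratios share the Parental library, and the likeness is a description of 4 libraries.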

How the data were processed

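The authors deposited raw counts of reads per gene for 1 Parental and 3 NOS2KO libraries, without normalization, with an exon length per gene. Submitters' processing notes name bcl2fastq 2.17, Trimmomatic 0.36, STAR 2.5.2b, featureCounts of Subread 1.5.2, GRCh38 and DESeq2. The labels give poly(A) enrichment, a NEBNext Ultra II kit and paired ends. The annotation release and the strand setting of the counting are not given in the sources used here, so reads of a gene and of an overlapping opposite-strand gene cannot be told apart. Of 57500 identifiers, 56898 had a GENCODE 29 symbol and 54784 the same span. The span of DHH differed, and that of the files is printed.

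Counts were fitted with edgeR 4.0.16 in R 4.3.3 (filterByExpr, TMM, glmQLFit, glmQLFTest; dispersion 0.319, 2 residual and 2.75 prior degrees of freedom), clones against Parental, with Benjamini-Hochberg adjustment over 22511 genes. DESeq2 1.42.0 was an alternative. With 1 Parental library the spread comes from the clones. CPM are TMM-scaled. Per-clone log2 ratios carry exact Clopper-Pearson 95% intervals, which, like the floor of 3 counts, cover counting error only. Python 3.11.15, numpy 2.4.6, pandas 2.3.3, scipy 1.17.1 and matplotlib 3.10.9 were used. The main fit, DESeq2 and the intervals were also run on simulated counts, with the outcome not reported here.

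The 9 genes and all lists were chosen with earlier results of these data known. Named were the 9 genes, list genes that met the fold criterion, the 2 of each list highest per length, genes within 50 kb of GLI1 at 1 CPM or more, the 5 most like GLI1, NOS2 and INHBE. IHH, CCND2, NKX2-2, overlapping genes and the cell type markers were named besides, after their values were seen. Some genes of the lists, though counted in them, are not reported here. Other scalings, filters, thresholds and fits, and each clone left out, were alternatives. The other experiments of the study were not analysed here.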

Additional observations from a re-analysis of the deposited data

How the results depend on the processing

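With 1 Parental library the spread of Parental cells is unknown, and depth limited DHH, SMO in clone 1 and HHIP in the library labelled clone 5. No paired analysis was possible because the Parental library and the clones share no replicate number that pairs them. GLI1, PTCH1 and HHIP met the fold criterion as lower under each scaling, filter and fit tried and with each clone left out. Without clone 1, GLI1 (log2 fold change -2.28) had an unadjusted p just under 0.05 and so only narrowly met the fold criterion. The number of Hedgehog genes that met it as higher (1) ran from 0 to 2 with a clone left out, that of Hedgehog genes with an adjusted p under 0.05 (0) was 2 in DESeq2, and in every clone the genes past 1 (3 lower, 1 higher) became 1 and 0 past 2 on the log2 scale, with 1 to 2 higher when a clone was left out. The log2 fold change of GLI3 (-0.035) changed sign to 0.0728 with upper quartile scaling and 0.0041 with at least 1 CPM in a library, and it ran from -0.1051 to 0.0593 with a clone left out. Upper quartile scaling moved the median log2 fold change of all tested genes from 0.0956 to 0.1996.

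Among the further pathway genes, the lower ones (2) were 1 with at least 1 CPM in a library, the higher ones (2) were 4 in DESeq2 and 1 to 8 with a clone left out. Among cilium genes, the lower ones (2) were 0 to 4 with a clone left out, and the higher ones (1) were 3 with upper quartile scaling, 2 without a filter, 2 in DESeq2 and 0 to 1 with a clone left out. Over all tested genes, adjusted p-values under 0.05 (1 gene) numbered 6 without a filter, 5 with the bias-adjusted quasi-likelihood, 1095 in DESeq2 and 0 with any clone left out, and genes higher by the fold criterion (955) numbered 1591 in DESeq2 and 655 to 1826 with a clone left out. Genes lower in every clone past 1 (1416) were 3207 past 0.5, 433 past 2 and 1839 to 2166 with a clone left out, and those higher (1727) were 3324, 657 and 2137 to 3088. The causes were not tested. Of the member fold changes under alternatives, 91 kept their direction and their side of an adjusted p of 0.05, 3 (GLI3) changed sign and 2 (HHIP and SUFU in DESeq2) passed it. By the fold criterion, SUFU lost its call without the library labelled clone 5, SMO gained one without clone 1 and GAS1 without clone 6. Of the counts 200 stayed within 1.5 times and 44 did not, and of the ratios of single clones 62 stayed within counting error and 19 did not.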
